A study of Rattus norvegicus with 6 samples.

Results

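The genes described here are receptors of the tumour necrosis factor (TNF) receptor family that can pass a death signal into a cell, close relatives of these receptors, and the adapters that bind them inside the cell. The group was given by name as 10 gene symbols, and rows of the deposited count table were matched to it by symbol. Of the 10, 8 had a row among the 18930 rows of the table (Fas, Tnfrsf22, Tnfrsf10b, Tnfrsf1a, Tnfrsf12a, Tnfrsf21, Fadd and Tradd), while Tnfrsf1b and Tnfrsf11b had no row and were not analysed here. A filter on low counts passed 7 of the 8 for testing, and Tnfrsf10b fell below it. Fas, Tnfrsf10b, Tnfrsf1a and Tnfrsf21 are death receptors in the strict sense, since their proteins carry a death domain. Tnfrsf22 and Tnfrsf12a encode receptors without one, and Fadd and Tradd encode adapters.

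NRK-52E is an established epithelial cell line from the rat kidney, here of wild-type genotype. RNA was sequenced from 3 samples given vehicle only (Control) and from 3 samples kept for 24 h in 10 mM streptozotocin (STZ), a glucose-linked nitrosourea that alkylates DNA. The study used the cells to ask which signalling responds when STZ is toxic to tubular cells. The Control libraries held 10430924, 10902792 and 12737131 counted reads, in the order of their replicate numbers, and the STZ libraries 13921413, 11658253 and 15191349. Values per sample below keep this order. Levels are given in CPM, the reads of a gene per 1000000 counted reads, on library sizes scaled by the TMM method. Nothing states that the replicates were separate cultures, so the p-values measure the spread between these samples, which may be technical.

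Markers of the labelled cell type were only partly read. A symbol without a row gives no level, and reads that map to several places were not counted. Krt8, a keratin of simple epithelia, was at a mean of 1149 CPM in Control and 1604 CPM in STZ, and was called higher, whereas its usual partner Krt18 had 0 to 3 reads per sample. Cdh1, which encodes the epithelial cadherin, had 32, 22 and 35 reads in Control and 23, 25 and 16 in STZ, and was called lower with a log2 fold change of -0.69 (standard error 0.27), although the groups overlapped. That call was lost with DESeq2 and with any of 4 of the 6 samples left out, down to -0.44 without STZ replicate 3. The transcripts of Cdh16 and Pax8, which mark kidney tubule cells, never exceeded 4 reads in a sample, and Krt19, Epcam and Pax2 had no row. Summed over the 6 proximal tubule markers with a row, the level was 16.5, 15.6 and 9.90 CPM in the Control samples and 6.83, 6.52 and 5.74 CPM in the STZ samples. Most of it was the water channel gene Aqp1, which was called lower at -1.25 (standard error 0.16), while the megalin gene Lrp2 and the transporter genes Slc34a1 and Slc2a2 had 0 to 4 reads. Vim, the intermediate filament gene of mesenchymal and many cultured cells, was at 2001 CPM in Control and 1842 CPM in STZ. Among all genes tested, 25.1% were called lower and 50.9% in either direction. All 5 mesenchymal markers that could be tested were called lower in STZ. The largest fall among them was that of the collagen gene Col3a1, from 53.9 to 21.3 CPM at a log2 fold change of -1.35 (standard error 0.08), and the smallest that of Vim, at -0.12 (standard error 0.04). Without Control replicate 3 the calls of Vim (-0.08), Acta2 (-0.15) and Col1a1 (-0.22) were lost, and that of Col1a1 also without STZ replicate 3 (-0.13). Immune markers summed to between 1.46 and 2.84 CPM, with Cd68 as the gene with most reads in each sample, and the pan-leukocyte gene Ptprc had 1 read in the 6 samples together. Endothelial markers summed to between 1.65 and 4.15 CPM, with Pecam1 and Cdh5 at 0 to 2 reads. The gene with most reads among them was Vwf, except in STZ replicate 2, where it was Kdr. Vwf had 36, 24 and 29 reads in Control and 22, 6 and 19 in STZ and was called lower at -1.15 (standard error 0.30), while Kdr, below the filter, had 0, 2 and 1 reads in Control and 6, 9 and 7 in STZ. Whether the differences in Krt8, Cdh1, Aqp1, Vwf, Kdr and the mesenchymal markers have a part in the values below was not tested.

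Death receptors sit in the plasma membrane and gather when a ligand of the TNF family binds them. Fas and the TRAIL receptors then recruit the adapter Fadd, which brings in caspase-8 and starts apoptosis. The TNF receptor Tnfrsf1a first recruits Tradd and the kinase Ripk1 and mostly signals to NF-kB, and can turn to apoptosis or, through Ripk3 and Mlkl, to necroptosis. In renal tubules Fas and TNF signalling are known from ischemic and toxic injury, and Fas and Tnfrsf10b are known targets of the transcription factor p53, which responds to DNA damage.

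To show the DNA next to the start sites of the receptors on which the results turn, the 250 bases before the start are printed for Fas, for Tnfrsf22, for its neighbour Tnfrsf26 and, as a reference, for the p53 target Cdkn1a. They come from the promoter table of RefSeq on the GRCr8 assembly, which is a newer build than the one the reads were mapped to. The stretches are chr1:241211905-241212154 on the plus strand for Fas, chr1:208285824-208286073 on the minus strand for Tnfrsf22, chr1:208252431-208252680 on the minus strand for Tnfrsf26 and chr20:7150682-7150931 on the plus strand for Cdkn1a, each directly upstream of an annotated start of the gene. Tnfrsf22 has another annotated start downstream, and the outermost is shown. Capitals mark a match to the p53 decamer.
Fas: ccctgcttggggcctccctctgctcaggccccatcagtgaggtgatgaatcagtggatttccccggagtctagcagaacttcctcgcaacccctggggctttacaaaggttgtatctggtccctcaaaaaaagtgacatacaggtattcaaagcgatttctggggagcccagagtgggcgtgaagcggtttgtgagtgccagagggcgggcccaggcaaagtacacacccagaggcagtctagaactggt
Tnfrsf22: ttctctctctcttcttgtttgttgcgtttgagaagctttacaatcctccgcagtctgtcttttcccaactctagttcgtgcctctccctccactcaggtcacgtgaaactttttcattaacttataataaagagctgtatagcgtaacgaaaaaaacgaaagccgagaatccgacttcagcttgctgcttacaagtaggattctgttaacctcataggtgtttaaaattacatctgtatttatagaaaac
Tnfrsf26: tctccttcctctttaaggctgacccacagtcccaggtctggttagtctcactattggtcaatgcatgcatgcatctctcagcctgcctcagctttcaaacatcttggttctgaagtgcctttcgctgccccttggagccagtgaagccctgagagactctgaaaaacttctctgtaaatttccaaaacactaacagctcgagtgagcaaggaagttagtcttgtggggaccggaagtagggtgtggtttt
Cdkn1a: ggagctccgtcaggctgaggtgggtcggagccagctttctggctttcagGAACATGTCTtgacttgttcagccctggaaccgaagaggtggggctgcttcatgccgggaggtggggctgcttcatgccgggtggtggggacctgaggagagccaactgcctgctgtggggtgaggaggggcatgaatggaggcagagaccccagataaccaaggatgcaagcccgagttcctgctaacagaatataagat
The table held 8 windows of 250 bases before to 50 bases after a start for 7 of the 10 genes, counting 1 for Tnfrsf1b, and none for Tnfrsf10b, Tnfrsf11b and Tradd. Both strands were searched for the p53 decamer and the kappaB site of NF-kB, each by its consensus with no mismatch, and the matches did not overlap. The p53 decamer was found in 7.98% of all 33469 windows and in 0 of the 8 windows of these genes. Of 3 p53 targets searched as references, Cdkn1a had it at position -201, and Mdm2 and Eda2r, which were also higher in STZ, had 0 matches. The kappaB site was found in 4.18% of all windows and in 1 of the 8, that of Fadd, as GGAGTACCCC on the gene's strand from position 15, counting the start as 1, which matches when read on the opposite strand. A missing match says only that these letters were not in this window.

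Among the death-domain receptors, Fas had the largest fold change and was scarcely read in Control. Its reads numbered 6, 2 and 3 in the Control samples but 44, 38 and 44 in the STZ samples. All 3 STZ samples lay far above all 3 Control samples, and the groups did not overlap. The level was 0.327 ± 0.208 CPM in Control (SD, n = 3) and 3.15 ± 0.189 CPM in STZ (SD, n = 3). The log2 fold change was 3.25 (standard error 0.36, 95% interval 2.52 to 3.98), with an adjusted p of 4.1e-10 (edgeR quasi-likelihood, Benjamini-Hochberg). This placed Fas at position 7 among the 11870 genes tested when ordered from the highest log2 fold change. Over the pooled reads, 11 in Control and 126 in STZ, the ratio scaled for library size was 9.8, with an exact 95% interval of 5.29 to 20.1 that covers counting error only. Fas passed the filter on low counts, at 0.82 CPM, only through its STZ samples, with 0 of 3 Control samples and 3 of 3 STZ samples over it, so it could be tested only because it was higher there. In the GRCr8 annotation an unnamed small nuclear RNA overlaps its span. In a culture measured in bulk, more cells that express a gene and more RNA per cell cannot be told apart, here or for the genes below.

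Tnfrsf10b, the only TRAIL receptor with a death domain in the list, was near the limit of detection. It had 2, 0 and 2 reads in the Control samples and 7, 5 and 3 reads in the STZ samples. The STZ samples were each above the Control samples, although by few reads, and the gene was not tested with the others. Pooled, 4 reads in Control against 15 in STZ gave a scaled ratio of 3.21, with an exact 95% interval from 1.02 to 13.3. This interval covers counting error only and leaves out the spread between samples. Without the filter on low counts the log2 fold change was 1.61 (standard error 0.86), and the adjusted p of 0.16 (edgeR quasi-likelihood, Benjamini-Hochberg, 18930 genes) did not pass, nor did that of 0.114 where 0.5 CPM in 1 sample was required. Tnfrsf10b was thus not called by the test used. In the GRCr8 annotation its span overlaps that of Rhobtb2, and whether the counting used strand is not given in the sources used here, although the library kit was stranded.

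Tnfrsf1a, the main receptor for TNF itself, was read abundantly and showed no difference past the threshold. Its levels were 108, 104 and 108 CPM in Control and 106, 108 and 103 CPM in STZ. The groups overlapped throughout. The log2 fold change was -0.02 (standard error 0.05), and its 95% interval from -0.11 to 0.07 covers small differences in either direction. The adjusted p was 0.785 (edgeR quasi-likelihood, Benjamini-Hochberg).

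Tnfrsf21, a death-domain receptor best known from neurons and lymphocytes, was modestly higher in STZ. It had 28.8, 30.5 and 24.0 CPM in the Control samples and 34.8, 35.1 and 34.0 CPM in the STZ samples. Control replicate 3 was the lowest of the 6, and all STZ samples lay above all Control samples. Between the groups the log2 fold change was 0.33 (standard error 0.08, 95% interval 0.17 to 0.48), with an adjusted p of 3.6e-04 (edgeR quasi-likelihood, Benjamini-Hochberg). The rise was thus past the adjusted p-value threshold but well under a doubling.

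**Figure D1:**
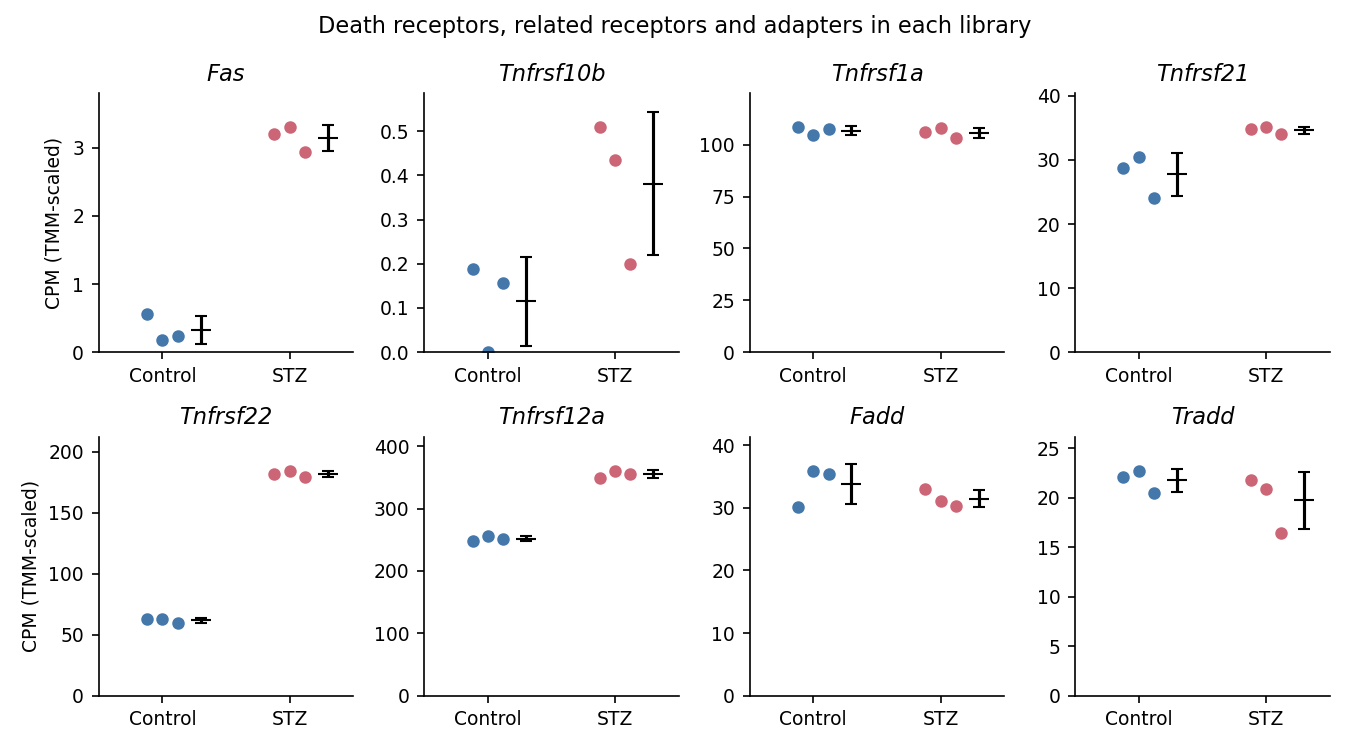
Level of each of the 8 genes with a row in every sample, in TMM-scaled CPM on a linear axis that starts at 0 and differs between panels. Dots are the 3 Control (blue) and 3 STZ (red) samples, and black bars give the mean and SD. Fas and Tnfrsf22 show the widest gap between the groups, while the dots of Tnfrsf1a, Fadd and Tradd overlap.

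Tnfrsf22 had the smallest p of the group. In rodents it encodes a receptor that binds the TRAIL ligand but has no death domain, and it is therefore counted among the decoy receptors. The gene had 664, 694 and 764 reads in the Control samples, whereas 2500, 2121 and 2681 reads were counted in the STZ samples. After scaling, the Control samples lay between 59.6 and 63.1 CPM and the STZ samples between 179 and 184 CPM, so the spread within each group was small against the gap. The means were 61.8 ± 1.91 CPM in Control (SD, n = 3) and 182 ± 2.7 CPM in STZ (SD, n = 3), a 2.94-fold difference. On the log2 scale the fold change was 1.56 (standard error 0.05, 95% interval 1.46 to 1.65), with an adjusted p of 1.15e-28 (edgeR quasi-likelihood, Benjamini-Hochberg). It stood at position 98 of the 11870 genes ordered by log2 fold change.

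Tnfrsf26, a related receptor gene next to Tnfrsf22 on chromosome 1 in the GRCr8 annotation, was not past the threshold. This neighbour, which was chosen for its position after its values were seen, had 332, 381 and 477 reads in Control and 482, 408 and 523 reads in STZ. The fitted log2 fold change was 0.03 (standard error 0.07, 95% interval -0.11 to 0.17), with an adjusted p of 0.787 (edgeR quasi-likelihood, Benjamini-Hochberg). Within single libraries there were 2, 1.82 and 1.6 reads of Tnfrsf22 per read of Tnfrsf26 in the Control samples and 5.19, 5.20 and 5.13 in the STZ samples. The mean ratio was 2.86 times as high in STZ, and since both genes are read in the same library it does not depend on how the libraries were scaled. Against Tnfrsf1a the ratio of Tnfrsf22 went from 0.578 ± 0.025 in Control (SD, n = 3) to 1.72 ± 0.014 in STZ (SD, n = 3), with no overlap. Neither Tnfrsf26 nor Tnfrsf1a was past the threshold, so both ratios largely restate the change of Tnfrsf22 itself. These ratios were not tested. With 3 samples against 3, an exact two-sided permutation test cannot give a p below 0.1. Only uniquely mapped reads were counted, and how many reads of these related genes map to both was not measured.

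**Figure D2:**
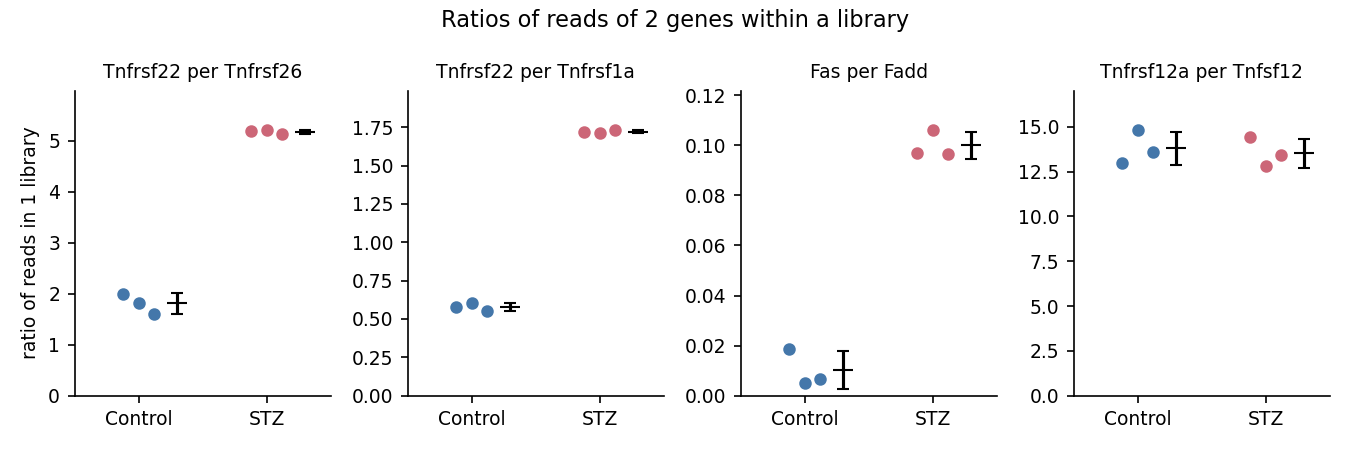
Ratio of the reads of one gene to those of another in the same library, on a linear axis from 0, for the 3 Control (blue) and 3 STZ (red) samples with mean and SD in black. Tnfrsf22 per Tnfrsf26 and per Tnfrsf1a and Fas per Fadd were higher in all STZ samples, while Tnfrsf12a per Tnfsf12 was 13.8 in Control and 13.5 in STZ on average.

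Tnfrsf12a and its ligand gene rose by similar factors. Tnfrsf12a encodes the receptor for TWEAK, which has no death domain and binds TRAF adapters, and it is known to be induced in injured tissue. Its levels were 249, 257 and 251 CPM in the Control samples and 348, 361 and 356 CPM in the STZ samples, with no overlap. This gave a log2 fold change of 0.49 (standard error 0.04, 95% interval 0.42 to 0.57), with an adjusted p of 8.13e-15 (edgeR quasi-likelihood, Benjamini-Hochberg). Tnfsf12, which encodes TWEAK, went from 202, 190 and 237 reads in Control to 333, 325 and 398 reads in STZ. This was a log2 fold change of 0.52 (standard error 0.08, 95% interval 0.35 to 0.69), with an adjusted p of 1.45e-06 (edgeR quasi-likelihood, Benjamini-Hochberg). The reads of Tnfrsf12a per read of Tnfsf12 were 13.8 ± 0.93 in Control (SD, n = 3) and 13.5 ± 0.82 in STZ (SD, n = 3). In the GRCr8 annotation the span of Tnfsf12 overlaps that of Eif4a1l.

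Neither adapter gene passed the threshold. Fadd had 30.2, 35.9 and 35.4 CPM in the Control samples and 32.9, 31.0 and 30.4 CPM in the STZ samples. Control replicate 1 was the lowest of all 6, and the groups overlapped. For Fadd the log2 fold change was -0.11 (standard error 0.07, 95% interval -0.26 to 0.04), with an adjusted p of 0.211 (edgeR quasi-likelihood, Benjamini-Hochberg). Without Control replicate 1 it was -0.18 and passed the threshold as lower, and without Control replicate 2 it was -0.07 and did not. Tradd had 22.1, 22.7 and 20.5 CPM in Control and 21.8, 20.9 and 16.5 CPM in STZ, where replicate 3 was the lowest. For Tradd the log2 fold change was -0.15 (standard error 0.09, 95% interval -0.33 to 0.04), with an adjusted p of 0.192 (edgeR quasi-likelihood, Benjamini-Hochberg). Without STZ replicate 3 it was -0.02 and without STZ replicate 1 it was -0.23, neither past the threshold. The span of Tradd overlaps that of Phaf1 in the GRCr8 annotation. The reads of Fas per read of its adapter Fadd were 0.0101 ± 0.0075 in Control (SD, n = 3) and 0.100 ± 0.0055 in STZ (SD, n = 3). As Fadd was not past the threshold, this ratio largely restates the change of Fas. By library the Control ratios were 0.0188, 0.00506 and 0.00661, so that replicate 1 weighs most in the Control mean.

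Of the 7 genes tested, 4 were higher in STZ at an adjusted p under 0.05 (Fas, Tnfrsf22, Tnfrsf12a and Tnfrsf21), 0 were lower and 3 were not past the threshold (Tnfrsf1a, Fadd and Tradd). The count of lower genes was also 0 at an unadjusted p under 0.05 and with DESeq2, limma-voom or edgeR's likelihood ratio test. In each of the 4 the groups did not overlap. The same test called 50.9% of all 11870 genes tested in either direction, 25.9% as higher and 25.1% as lower, and the groups did not overlap in 56.3%. With a log2 fold change over 1 or under -1 required as well, 2 of the 7 were called (Fas and Tnfrsf22), both higher, against 2.26% of all genes tested called as higher and 3.37% in either direction. Leaving aside Fas, which had to be higher in STZ to be tested, 3 of 6 were higher. The median log2 fold change of the 7 was 0.33, and that of all genes tested was -0.01. These genes were picked with results of the same samples known, so nothing is read from these shares beyond the values of the single genes.

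**Figure D3:**
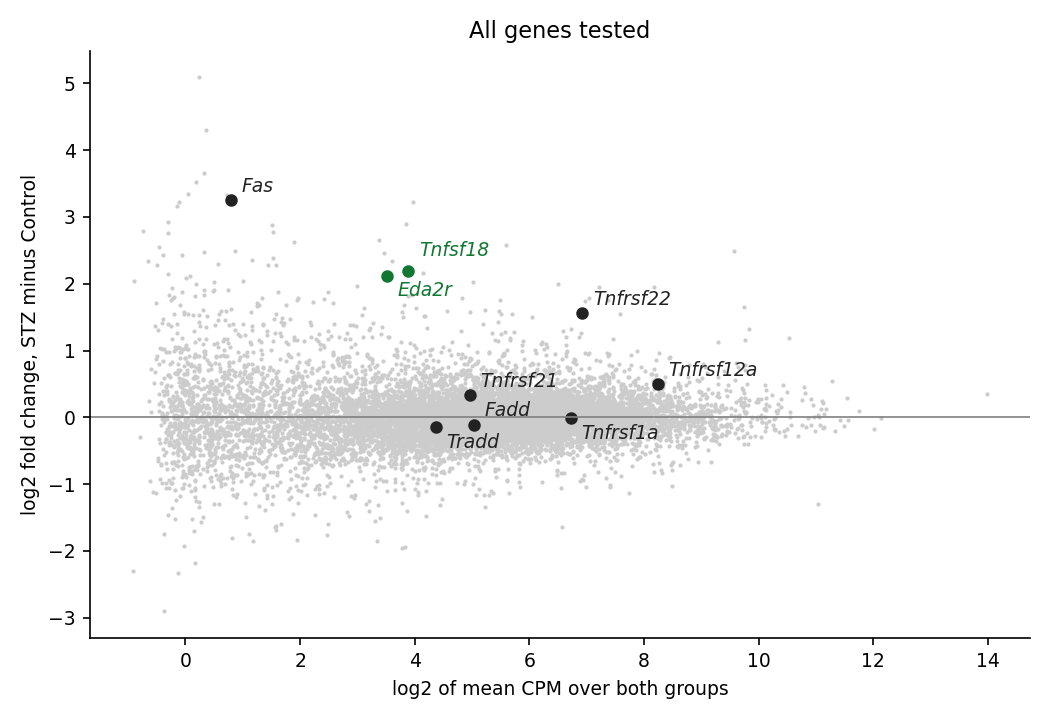
Log2 fold change (STZ minus Control) against the log2 of the mean CPM of both groups for the 11870 genes tested (grey), with the 7 tested genes of the group in black and Eda2r and Tnfsf18 in green. Fas lies at the low end of expression at 3.25, Tnfrsf22 well above the cloud at its level at 1.56, and Tnfrsf1a, Fadd and Tradd within it.

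Few ligands of the family were read in these cells. The list held 19 symbols, in which Fasl and Faslg name the same gene, 12 had a row, and 6 were tested. The ligand of Fas itself, Faslg, had 0, 1 and 1 reads in Control and 1, 0 and 3 in STZ. Tnfsf10, which encodes TRAIL, had 0, 3 and 0 reads in Control and 3, 1 and 3 in STZ, and Tnf had no row. Of the 6 tested, 3 were higher, 1 was lower and 2 were not past the threshold (50.9% of all genes tested were called in either direction), with a median log2 fold change of 0.46 beside -0.01 for all genes. Tnfsf18, the ligand of the costimulatory receptor Tnfrsf18, had 48, 60 and 75 reads in Control and 320, 275 and 388 reads in STZ. All STZ samples were several times above the Control samples. The log2 fold change of Tnfsf18 was 2.20 (standard error 0.11), with an adjusted p of 3.8e-20 (edgeR quasi-likelihood, Benjamini-Hochberg), and its span overlaps that of an unnamed long non-coding RNA. Its receptor Tnfrsf18 had 0 reads in all 3 Control samples and 4, 0 and 3 reads in the STZ samples, too few for a comparison.

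The calls of the remaining ligands were less secure. Ltb, which encodes lymphotoxin beta, had 10, 9 and 15 reads in Control and 5, 3 and 10 in STZ, and passed the filter only through its Control samples. Its log2 fold change of -1.13 (standard error 0.43) had an adjusted p of 0.0271 (edgeR quasi-likelihood, Benjamini-Hochberg), and the call was lost without the filter, with DESeq2, and without STZ replicate 1 or 2, where the log2 fold change was -0.99 or -0.91. Without Control replicate 3 it no longer passed the filter. Tnfsf15 had 26, 13 and 27 reads in Control and 54, 36 and 39 in STZ. Tnfsf15 was higher by 0.74 on the log2 scale (standard error 0.25), with an adjusted p of 0.0121 (edgeR quasi-likelihood, Benjamini-Hochberg), and lost its call with DESeq2, without Control replicate 2 (0.50) and without STZ replicate 1 (0.57). Tnfsf13 at 0.40 (0.24 without Control replicate 3) and Tnfsf9 at -0.29 were not past the threshold.

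Of 19 other receptors of the family listed, 17 had a row and 7 were tested, of which 3 were higher, 2 lower and 2 not past the threshold, beside 50.9% of all genes tested called in either direction. The median log2 fold change was 0.03. Eda2r, the receptor for the A2 form of ectodysplasin and a known p53 target, had 55, 43 and 49 reads in Control and 240, 214 and 297 reads in STZ. Each STZ library held several times the reads of any Control library. The log2 fold change of Eda2r was 2.12 (standard error 0.13), with an adjusted p of 8.08e-18 (edgeR quasi-likelihood, Benjamini-Hochberg). Ngfr, the death-domain receptor for neurotrophins, went the other way, from 162, 142 and 148 reads in Control to 87, 90 and 80 reads in STZ. For Ngfr the log2 fold change was -1.04 (standard error 0.14) and the adjusted p 2.08e-08 (edgeR quasi-likelihood, Benjamini-Hochberg). Tnfrsf25, the death-domain receptor for the product of Tnfsf15, was lower as well, at -0.63 (standard error 0.12). Relt at 0.52 (standard error 0.15) was higher, but not without STZ replicate 2, where it was 0.37 and missed the threshold. Ltbr, the lymphotoxin beta receptor, was higher by 0.10 (standard error 0.04), a call that was lost under upper quartile or library size scaling and without Control replicate 1 (0.08), STZ replicate 2 (0.09) or STZ replicate 3 (0.10). Without STZ replicate 2, then, 1 of the list was called higher in place of 3. Tnfrsf4 was at -0.71 and not past the threshold, after passing the filter only through its Control samples.

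**Figure D4:**
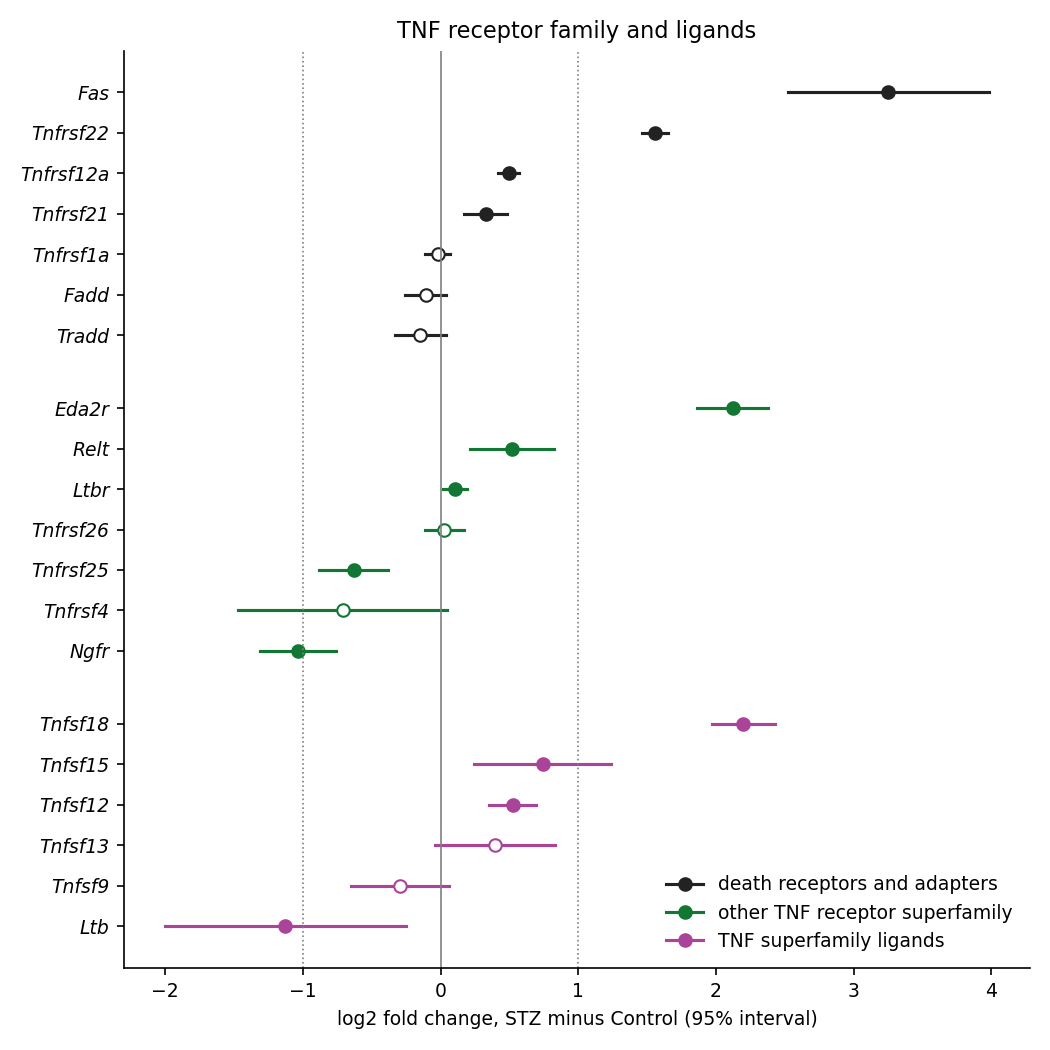
Log2 fold change (STZ minus Control, horizontal axis) with its 95% interval for each tested gene of the group (black), the other TNF receptor genes (green) and the ligand genes (purple). Filled dots have an adjusted p under 0.05 and dotted lines mark 1 and -1. Fas, Eda2r, Tnfsf18 and Tnfrsf22 lie beyond 1 with their whole interval.

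In the list of the death complex and its regulators, downstream of the receptors, 21 of 24 genes were tested, 10 were higher, 4 were lower and 7 were not past the threshold, beside 25.9% higher and 25.1% lower among all genes tested. The median log2 fold change was 0.11. The 4 with the smallest p were all higher, and none of the 21 reached a log2 fold change of 1. Pea15, which encodes a death-effector-domain protein that can keep Fadd and caspase-8 apart, went from 162 ± 1.46 CPM in Control (SD, n = 3) to 267 ± 5.58 CPM in STZ (SD, n = 3). The log2 fold change of Pea15 was 0.72 (standard error 0.04) and the adjusted p 2.41e-19 (edgeR quasi-likelihood, Benjamini-Hochberg). The necroptosis kinase gene Ripk3 rose by 0.44 (standard error 0.04) and Mlkl, the membrane-breaking effector it phosphorylates, by 0.61 (standard error 0.08). In the GRCr8 annotation Pea15 overlaps Dcaf8 and Ripk3 overlaps Nfatc4.

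Some further genes of the same list are given for their place next to Fadd and Ripk1 and were chosen after their values were seen. Casp8, the initiator caspase gene, had a log2 fold change of 0.11 (standard error 0.07, 95% interval -0.04 to 0.26) and was not past the threshold (0.07 without STZ replicate 2). Cflar, which encodes the caspase-8 inhibitor of the death complex, was higher by 0.41 (standard error 0.10). Per library there were 1.62, 2.26 and 1.70 reads of Casp8 per read of Cflar in Control and 1.31, 1.65 and 1.55 in STZ, so that the groups overlapped. Bid, the caspase-8 substrate that links to the mitochondrial route, was higher by 0.58 (standard error 0.08). Ripk1 had a log2 fold change of -0.06 (standard error 0.06; -0.04 to -0.11 with 1 sample left out) and was not past the threshold. The caspase inhibitor gene Xiap was lower, at -0.31 (standard error 0.07), and so was Faim, an inhibitor of Fas-induced death, at -0.38 (standard error 0.07). Birc2 and Birc3, of the same inhibitor family as Xiap, went the other way, at 0.24 (standard error 0.06) and 0.66 (standard error 0.26). The call of Birc3 was lost with DESeq2 and without Control replicate 1 (0.42), STZ replicate 1 (0.66) or STZ replicate 3 (0.60).

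In the arm that leads from TNF receptors to NF-kB, 25 of 27 genes listed were tested, 4 were higher, 2 were lower and 19 were not past the threshold, beside 25.9% higher and 25.1% lower among all genes tested. The median log2 fold change was 0.11. Nfkb2, the precursor subunit of the non-canonical route, rose by 0.43 (standard error 0.06), and Map3k14, the kinase that starts this route, by 0.30 (standard error 0.07). Rbck1, a subunit of the linear ubiquitin ligase, rose by 0.25 (standard error 0.05). Nfkb1, the corresponding subunit of the canonical route, was lower at -0.25 (standard error 0.05).

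Receptors of this family can be cut from the cell surface. All 7 genes listed for this shedding were tested, 3 were higher, 2 were lower and 2 were not past the threshold, with a median of 0.18. Among all genes tested, 50.9% passed the same threshold, 25.9% as higher and 25.1% as lower. Adam17, the sheddase that releases TNF and TNF receptors, rose by 0.35 (standard error 0.04), and Frmd8, which stabilises the complex of Adam17 with its carrier proteins, by 0.66 (standard error 0.05). The related protease gene Adam10 was lower at -0.21 (standard error 0.04), and Erap1, an aminopeptidase that binds Tnfrsf1a and promotes its shedding, was lower at -0.19 (standard error 0.04).

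Among other death-domain genes, 10 of 15 listed were tested, 3 were higher, 2 were lower and 5 were not past the threshold, with a median of -0.06, where 50.9% of all genes tested were called in either direction. Without STZ replicate 3, 4 were lower. Pidd1, a p53-induced death-domain protein, went from 19.7 ± 1.49 CPM in Control (SD, n = 3) to 36.4 ± 2.52 CPM in STZ (SD, n = 3), which corresponds to a log2 difference of 0.89 (standard error 0.08). The netrin receptor genes Unc5c and Unc5b rose by 0.82 (standard error 0.18) and 0.20 (standard error 0.04). Madd, which encodes a death-domain protein that binds Tnfrsf1a, was lower at -0.46 (standard error 0.06).

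**Figure D5:**
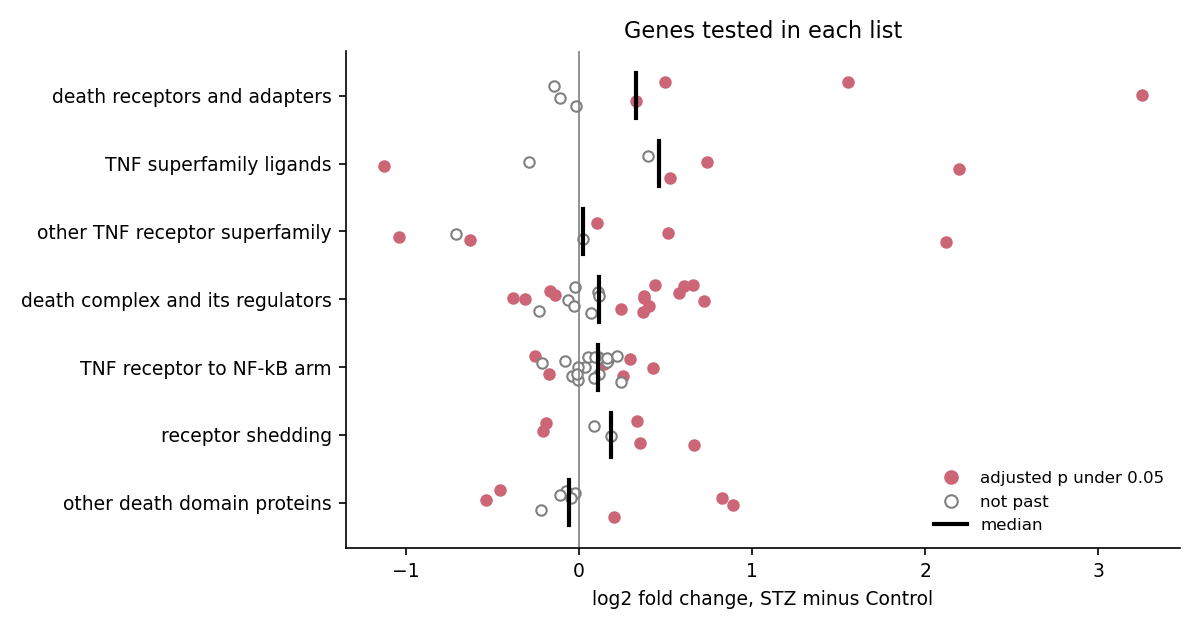
Log2 fold change (STZ minus Control, horizontal axis) of each gene tested in the 7 lists, with filled dots for an adjusted p under 0.05, open dots for genes not past it and a black bar at each list's median. The medians run from -0.06 for other death domain proteins to 0.46 for the ligands, and values beyond 1 or -1 occur among the receptors and ligands.

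The 5 genes whose pattern over the 6 samples lay nearest to that of Fas, by the distance between mean-centred log2 CPM values, were Pinlyp (0.544), Tnip3 (0.547), Lcn3 (0.733), Des (0.762) and Ccl2 (0.764). They were picked for closeness to Fas in these same samples, so their large rise in STZ follows from the choice. Tnip3 had 5, 1 and 4 reads in Control and 40, 34 and 47 in STZ, and Ccl2 had 3, 1 and 2 reads in Control and 23, 15 and 31 in STZ. Like Fas, both passed the filter only through their STZ samples. Pinlyp was read more deeply, at 43, 35 and 39 reads in Control and 356, 317 and 341 in STZ, and its log2 fold change was 2.89 (standard error 0.13). The p53 targets Cdkn1a and Mdm2, taken as references, had log2 fold changes of 2.49 (standard error 0.04) and 1.95 (standard error 0.04). In fold change, Eda2r and Tnfsf18 lay between these references, Fas above them and Tnfrsf22 below both.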

How the data were processed

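Reads were aligned by the authors to Rnor6 with STAR (2.7.10a in the submitters' processing notes), and reads with a unique position were assigned to genes by featureCounts. The deposited table holds these counts without normalization. All 6 samples entered edgeR 4.0.16 (R 4.3.3), with TMM scaling, a filter on low counts (filterByExpr, here 0.82 CPM in at least 3 samples) and the quasi-likelihood F test, and p-values were adjusted by Benjamini-Hochberg over the 11870 genes tested. Calls used an adjusted p under 0.05, alone or with an absolute log2 fold change over 1. A standard error is the size of the log2 fold change over the root of its F statistic, and 95% intervals use the test's degrees of freedom. Alternatives were other filters, scalings and tests (DESeq2 1.42.0, limma-voom with limma 3.58.1, edgeR's likelihood ratio test and glmTreat), a replicate block, and each sample left out in turn. Steps were tested on simulated counts. The 10 genes and the lists were chosen with earlier results of these data known. Named genes are these 10, those of each list called under both thresholds, the 4 with the smallest p per list, the 5 nearest to Fas, Cdkn1a and Mdm2. Faslg, Tnfsf10, Tnf, Tnfrsf18 and those marked in the text were named after their values were seen. Single values of some genes are left out of the text, though these genes enter the counts. Counts of replicates were compared within groups, and each pair differed beyond sampling noise. Transcript lengths were not used here, so levels of different genes set side by side, and ratios of their reads, are not corrected for length. Promoters come from RefSeq (GRCr8), and the gene spans of that build were used only for overlaps and neighbours.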

Additional observations from a re-analysis of the deposited data

How the results depend on the processing

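Of 112 refits of the 8 genes with a row, 110 kept the direction and the side of the adjusted p threshold. Tnfrsf1a, never past it, ranged from -0.033 to 0.0024 with 1 sample left out and was above 0 only without STZ replicate 3. Fadd passed only without Control replicate 1, at -0.18 and an adjusted p of 0.0449 (edgeR quasi-likelihood, Benjamini-Hochberg, 0.0449 to 0.516 over its alternatives), so that the count of lower genes was 0 to 1 with 1 sample left out. Where at least 10 counts in every sample were required, Fas was not tested, 3 were higher, and 1 of the group, Tnfrsf22, and 249 of all genes passed both thresholds, against 2 and 400. When edgeR's glmTreat tested against a log2 fold change of 1, 112 of all genes and both Fas and Tnfrsf22 passed. With Fas tested, its log2 fold change ranged from 2.99 to 3.84, and that of Tnfrsf22 ranged from 1.52 to 1.57. Of 554 refits of the 35 other genes named by rule, 541 kept their side and 13 lost a call (Ltb, Tnfsf15, Relt and Ltbr). Of 192 list counts, 184 stayed within 1.5 times and 8 did not. Whether samples with the same replicate number share a culture or batch is not stated. Their deviations from the group mean correlated at 0.0319, -0.0389 and 0.102 over 10341 genes. Of the 6 samples, 3 correlated best with their own number, which with 3 samples a group cannot decide the question. With the replicate block, 4 of the group were higher, 0 lower and 2 past both thresholds, as were 398 of all genes, and no call of the group changed. Read depth limits Fas, Tnfrsf10b and most ligands, and with 3 samples a group a single gene's exact permutation p cannot go below 0.1.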
